A study of Mus musculus with 4 samples.

Results

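The genes described here encode the PGC-1 coactivators Ppargc1a and Ppargc1b and the estrogen-related receptors Esrra, Esrrb and Esrrg, and they were followed by chromatin accessibility in nuclei of mouse inguinal white adipose tissue (iWAT). They are 5 of 17196 protein-coding genes that had a peak. Every peak on the gene body or in the 2 kb upstream was counted for a gene, which gave 15 peaks for Ppargc1a, 26 for Ppargc1b, 2 for Esrra, 16 for Esrrb and 45 for Esrrg, 104 of the 189598 peaks in all. None of these peaks was shared with another gene. The study asked how chromatin changes while beige adipocytes form under cold or under CL-316,243 (CL), an agonist of the β3-adrenergic receptor. Male C57BL/6 mice of 8 weeks stood in 7 groups of 3: untreated at 22 °C (day0RT), kept at 6.5 °C for 1, 3 or 7 days (day1C, day3C, day7C), or given 1 mg/kg CL over the same times (day1CL, day3CL, day7CL). All groups, day0RT included, were C57BL/6J mice bought from 1 supplier, with no transgene or deletion named, and single-nucleus ATAC-seq (snATAC-seq) was made from whole inguinal tissue.

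The 32552 nuclei carried the study's own names of 12 cell types, among them white adipocytes, beige adipocytes, 2 clusters of adipocyte progenitors (APC1, APC2), vascular endothelial cells (VEC), a cluster labelled vascular smooth muscle (VSMC), macrophages, dendritic cells, B cells and 3 T cell clusters. A mouse contributed 1111 to 2021 nuclei and 1340376 to 6916698 counts, where a count is 1 nucleus with reads in 1 peak. Counts were summed per mouse and cell type where at least 10 nuclei were present, and a gene's level is CPM, its counts scaled to all counts on genes in that sum. The libraries were uneven in adipocytes: the day1CL mice held 29, 68 and 654 adipocyte nuclei, and adipocytes made up 75.1% of the nuclei of 1 day3CL mouse. Between mice, 4218 barcode sequences recurred, and only between mice of the same number and treatment on different days.

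PGC-1 proteins bind no DNA themselves. They are recruited by nuclear receptors and raise transcription of genes for mitochondria, fatty acid oxidation and heat production, and the ERR proteins are orphan nuclear receptors that bind the element TCAAGGTCA and are among their main partners. In brown and beige fat, adrenergic signalling through cyclic AMP induces Ppargc1a, whose promoter carries a cyclic AMP response element and elements for MEF2 factors. Ppargc1b is less dependent on that signal. Accessibility of a gene is not its transcript level.

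Sequences are shown for the peaks on which the later comparisons turn, as the plus strand of mm10. The inner start of Ppargc1a, where 3 of its 5 annotated transcripts begin, lies in a peak at chr5:51553638-51554188, on the minus strand, and 80 bases upstream of the nearest annotated start this peak holds the cyclic AMP element TGACGTCA, in capitals in the 30 bases at chr5:51553987-51554016. The central 300 bases of further peaks follow. The first is the Ppargc1a peak 24.2 kb upstream of the gene start (chr5:51591738-51592037), more open in beige than in white adipocytes. Next is the Esrrb intron peak that passed against day0RT in day7C and day7CL (chr12:86498900-86499199). Its MEF2 element is in capitals, CTA and TAG with 4 bases of any kind between them. The last 2 are intron peaks of Esrrg that were more open in beige adipocytes (chr1:187698284-187698583 and chr1:187762881-187763180). The latter has the shorter ERR core AAGGTCA in capitals, read on the minus strand.
Ppargc1a start: gcacaaactccTGACGTCActccaaggcag
Ppargc1a upstream: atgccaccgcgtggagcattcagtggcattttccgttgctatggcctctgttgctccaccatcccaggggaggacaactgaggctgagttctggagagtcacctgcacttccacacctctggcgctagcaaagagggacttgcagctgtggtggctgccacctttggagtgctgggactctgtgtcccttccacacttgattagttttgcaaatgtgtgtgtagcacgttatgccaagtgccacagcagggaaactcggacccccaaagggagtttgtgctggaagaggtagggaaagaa
Esrrb intron: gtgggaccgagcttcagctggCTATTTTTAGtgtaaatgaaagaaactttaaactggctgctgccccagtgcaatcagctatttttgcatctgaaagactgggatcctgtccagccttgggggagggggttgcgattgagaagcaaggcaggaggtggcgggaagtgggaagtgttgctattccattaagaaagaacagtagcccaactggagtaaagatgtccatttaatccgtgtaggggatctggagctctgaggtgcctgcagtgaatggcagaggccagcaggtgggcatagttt
Esrrg first intron peak: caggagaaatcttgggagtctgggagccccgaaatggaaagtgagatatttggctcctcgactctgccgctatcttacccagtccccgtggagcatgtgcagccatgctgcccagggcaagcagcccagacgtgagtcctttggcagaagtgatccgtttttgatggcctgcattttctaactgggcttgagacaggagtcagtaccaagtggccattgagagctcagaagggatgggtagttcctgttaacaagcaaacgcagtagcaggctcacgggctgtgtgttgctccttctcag
Esrrg second intron peak: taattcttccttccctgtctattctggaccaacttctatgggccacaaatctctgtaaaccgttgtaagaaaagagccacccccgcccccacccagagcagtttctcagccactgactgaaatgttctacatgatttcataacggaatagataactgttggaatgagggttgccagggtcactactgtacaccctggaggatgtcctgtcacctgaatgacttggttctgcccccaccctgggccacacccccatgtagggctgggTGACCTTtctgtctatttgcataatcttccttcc

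These letters were searched on both strands in the central 300 bases of every peak. The ERR element TCAAGGTCA, which contains the core AAGGTCA, was in 0.632% of all 189598 peaks and in 0 of the 104 counted peaks of the 5 genes, and the core alone was in 7.22% of all peaks and in 10 of the 104 (9.62%). TGACGTCA was in 0.478% of all peaks and in 1 of the 104, the Ppargc1a start peak printed above. The MEF2 element was in 4.88% of all peaks and in 6 of the 104 (5.77%), 4 of which belonged to Esrrb. Upstream of the counted regions, out to 50 kb, 3 of 29 peaks held the full ERR element: 2 upstream of Ppargc1b, at 16.3 and 23.9 kb from its start, and 1 upstream of Esrra, at 10.4 kb. The last of these also belongs to the region of the gene Kcnk4, and every upstream peak of Esrra lies in the region of another gene.

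Across cell types, the coactivator genes were most open in adipocytes and in the cluster labelled VSMC, and Esrrg was also open in APC2 progenitors. Per kb of counted peaks, white adipocytes had 35.8 CPM on Esrra, 24.4 on Ppargc1b, 16.1 on Ppargc1a, 11.4 on Esrrg and 8.78 on Esrrb. The order of the cell types was tested between neighbours, within the mice that had both, by a sign-flip permutation test of log2(CPM + 1), with p-values adjusted over all 55 neighbouring pairs. In 8 pairs the neighbours differed. Levels of a cell type are given as mean CPM ± SD over mice.

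**Figure D1:**
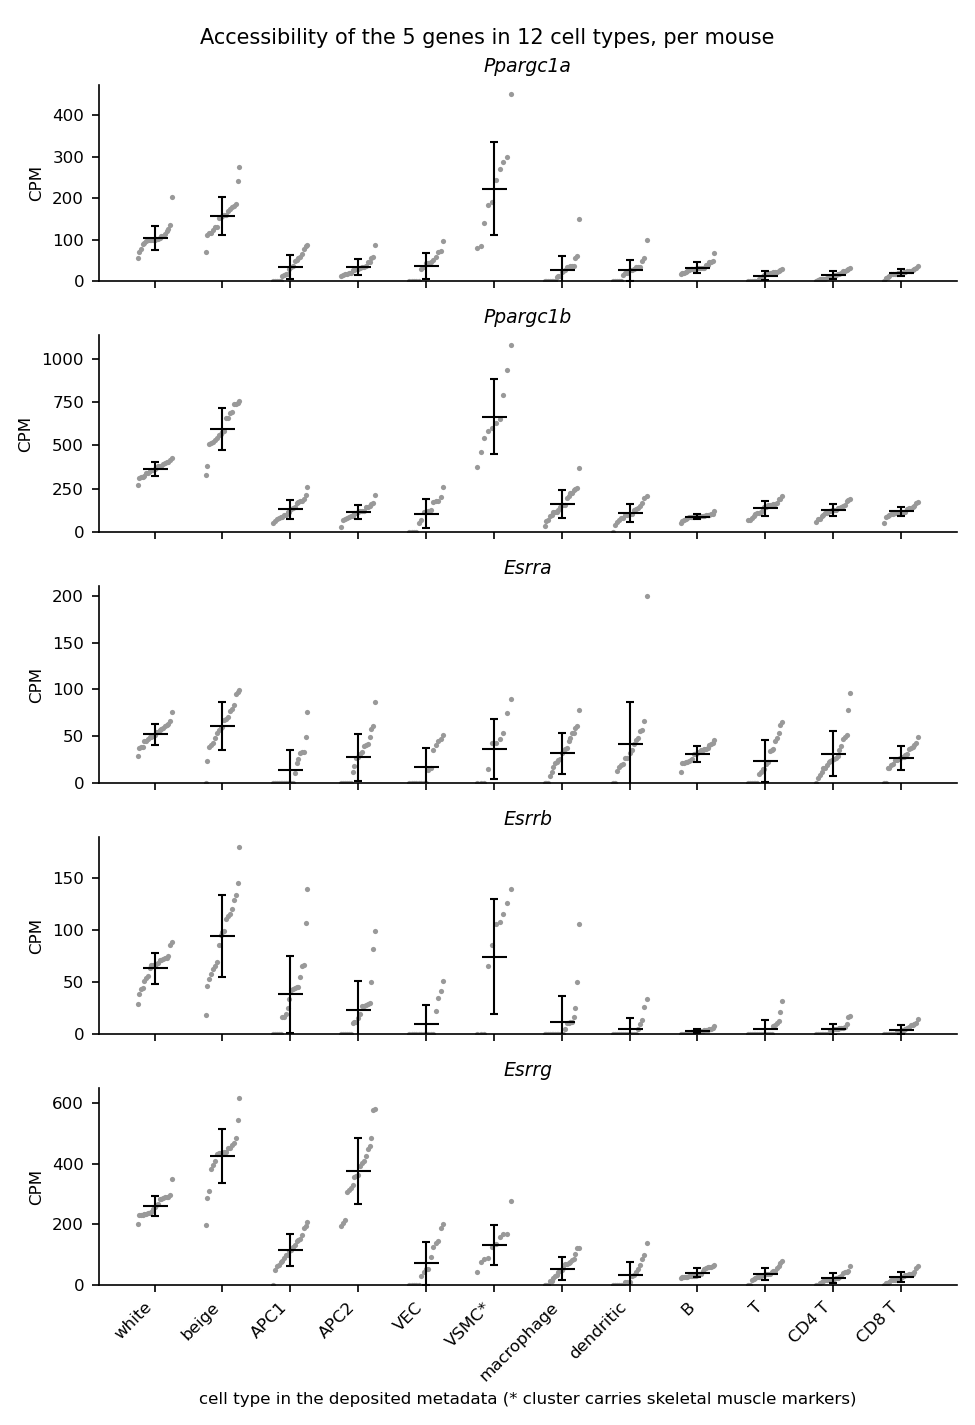
Accessibility of each gene (CPM, y axis, from 0) in the 12 cell types (x axis). Each grey point is 1 mouse with at least 10 nuclei, drawn in order of value, and black lines give mean ± SD, cut at 0. Ppargc1a and Ppargc1b stand highest in the cluster labelled VSMC (223 and 666 CPM) and in beige adipocytes, and Esrrg is high in beige adipocytes, APC2 and white adipocytes.

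Ppargc1a, the coactivator induced by adrenergic signalling, was at 223 ± 113 CPM in the cluster labelled VSMC (n = 10), 157 ± 46.5 in beige adipocytes (n = 19) and 105 ± 28.7 in white adipocytes (n = 21), and the other 9 cell types had 12.8 to 36.2 CPM. Beige adipocytes stood above white in 18 of 19 mice (log2 difference 0.59, permutation test, adjusted p = 0.000367), and white adipocytes above VEC in 15 of 15 mice (2.79, adjusted p = 0.000839), whereas the VSMC cluster and beige adipocytes did not differ beyond their spread (higher in 6 of 10 mice, 0.34, permutation test, adjusted p = 0.468). B cells stood above macrophages in 15 of 21 mice (1.67, adjusted p = 0.0223). Their paired means were 32.4 and 26.0 CPM, and macrophage sums reached 0 CPM, where log2(CPM + 1) widens a difference. VEC sums also reached 0 CPM, beside paired means of 97.7 CPM in white adipocytes and 36.2 in VEC. With at least 30 nuclei, which 2 mice had in VEC, white above VEC was 1.09 and lost its call. With only peaks near the annotated start counted, beige above white was 1.04 and lost its call (permutation test, adjusted p = 0.503). No other neighbours in the order passed for this gene.

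Ppargc1b had the same leading order, with 666 ± 215 CPM in the cluster labelled VSMC (n = 10), 593 ± 121 in beige adipocytes (n = 19), 362 ± 39.7 in white adipocytes (n = 21) and 88.1 to 162 in the others. The VSMC cluster was above beige adipocytes in only 4 of 10 mice (log2 difference 0.21, permutation test, adjusted p = 0.565). With at least 30 nuclei the means changed order, at 564 CPM in beige adipocytes (n = 13) and 500 CPM in the VSMC cluster (n = 3). The levels of beige adipocytes exceeded those of white adipocytes in 19 of 19 mice (log2 difference 0.69, adjusted p = 0.000367), and white adipocytes those of macrophages in 21 of 21 (1.33, adjusted p = 0.000367). With only peaks near the annotated start counted, white adipocytes and macrophages had means of 179 and 174 CPM, and their call was lost (0.5, permutation test, adjusted p = 0.57). The 9 cell types from macrophages down could not be told apart from their neighbours.

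Esrra, which has the broadest role among the ERR genes in mitochondrial gene control, had means that differed less between cell types than those of the other 4 genes. They ran from 61.1 ± 25.6 CPM in beige adipocytes (n = 19) and 51.8 ± 11.1 in white adipocytes (n = 21) to 14.0 ± 21.4 in APC1 (n = 20), and no neighbours differed beyond their spread. Only 2 peaks are counted for it, and a peak around 1 of its inner start sites held 82.3% of its adipocyte counts.

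Esrrb, known for its role in pluripotent cells and rarely studied in fat, was at 94.1 ± 39.4 CPM in beige adipocytes (n = 19), 74.2 ± 55.1 in the cluster labelled VSMC (n = 10), 62.8 ± 15.1 in white adipocytes (n = 21), 37.9 ± 36.7 in APC1 (n = 20) and 22.9 ± 27.5 in APC2 (n = 19). The other 7 cell types had at most 11.6 CPM. White adipocytes exceeded APC1 (log2 difference 1.93, permutation test, adjusted p = 0.0145), and the remaining neighbours did not differ beyond their spread. The paired means of white adipocytes and APC1 were 64.5 and 37.9 CPM, and APC1 sums reached 0 CPM. With at least 30 nuclei this difference was 1.07 and lost its call (permutation test, adjusted p = 0.102).

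Esrrg, the receptor that is high in oxidative muscle and brown fat, was at 425 ± 90.5 CPM in beige adipocytes (n = 19), 376 ± 109 in APC2 (n = 19), 261 ± 33.8 in white adipocytes (n = 21), 133 ± 66.5 in the cluster labelled VSMC (n = 10) and 115 ± 53.1 in APC1 (n = 20). APC2 exceeded white adipocytes in 16 of 19 mice (log2 difference 0.48, adjusted p = 0.011), and white adipocytes exceeded the VSMC cluster (1.11, permutation test, adjusted p = 0.0269). The peaks differed between these cell types: the most open Esrrg peak in APC2 was at chr1:188107742-188108328, with 42.3 CPM of all peak counts there against 3.94 in white and 2.32 in beige adipocytes, whereas the peak at the annotated gene start had 36.6 CPM in beige adipocytes, 22.3 in APC2 and 20.2 in white adipocytes. With at least 30 nuclei, APC2 above white adipocytes was 0.44 and lost its call (permutation test, adjusted p = 0.325). With only peaks near the annotated start counted, the means were close, at 62.1 CPM in APC2 and 64.4 CPM in white adipocytes. The log2 difference was then -1.7 (permutation test, adjusted p = 0.242), and APC2 sums reached 0 CPM, where log2(CPM + 1) widens a difference.

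The cluster labelled VSMC went against its label. The summed level of 8 skeletal muscle marker genes was 1720 CPM there (1410 to 1980 over 10 mice) and 106 to 242 CPM in the means of the other 11 cell types, whereas the summed level of 6 smooth muscle genes was 155 CPM there and 599 CPM in APC2. No skeletal muscle marker with a peak was at 0 in it. In adipocytes the same skeletal muscle sum had group means of 81.5 to 135 CPM. The part of muscle nuclei in the levels of Ppargc1a, Ppargc1b and Esrrb in this cluster was not tested.

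The peaks at the start sites of Ppargc1a also differed between cell types. Ppargc1a has an inner start, printed above, and a start farther upstream whose peak lies at chr5:51567679-51568156. That far start peak had 39.4 CPM of all peak counts in the cluster labelled VSMC, 7.64 in beige adipocytes, 1.5 in white adipocytes and at most 1.61 in the other cell types. The inner start peak had 47.9 CPM there, 20.3 in beige, 13.4 in white adipocytes and at most 7.69 elsewhere. In adipocytes the far start peak gave 0, 0 and 1 counts in the day0RT mice, 2, 4 and 7 in day7C and 15, 5 and 6 in day7CL, which is too few for a test of single peaks.

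Beige adipocytes were more open than white adipocytes at 4 of the 5 genes, the exception being Esrra. Both clusters were defined by the study from these same counts, so this comparison is not independent of the annotation. In edgeR's quasi-likelihood test with Benjamini-Hochberg adjustment, 28.8% of 12770 genes passed in this comparison and 13.6% passed as higher in beige adipocytes. The summed level of 6 adipocyte markers was 1830 CPM in white and 1720 CPM in beige nuclei, with none at 0, and the 4 beige markers Ucp1, Cidea, Cox8b and Dio2 summed to 158 and 352 CPM.

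For the coactivators, Ppargc1a ranged from 55.8 CPM over a median of 99.8 to 203 in white adipocytes and from 70.5 over 156 to 274 in beige adipocytes. The ranges overlapped, and the difference was 0.63 ± 0.09 on the log2 scale (SE; 1.55-fold; adjusted p = 7.34e-10). Ppargc1b ranged from 271 over 361 to 425 CPM in white and from 330 over 574 to 757 CPM in beige adipocytes, a difference of 0.65 ± 0.06 (1.57-fold; adjusted p = 1.56e-17). Within mice that had both sums, Ppargc1a was higher in the beige nuclei of 18 of 19 mice and Ppargc1b in those of 19 of 19.

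Among the receptors, Esrrg ranged from 200 over 258 to 348 CPM in white and from 199 over 436 to 618 CPM in beige adipocytes (0.67 ± 0.06 on the log2 scale, 1.59-fold, adjusted p = 6.61e-18, higher in 18 of 19 mice). Esrrb ranged from 29.0 over 66.5 to 88.1 CPM and from 17.6 over 97.4 to 179 CPM (0.44 ± 0.10, 1.36-fold, adjusted p = 0.000232, higher in 14 of 19 mice). Esrra did not pass, at 51.1 CPM in the median white and 59.6 CPM in the median beige sum (0.09 ± 0.11, adjusted p = 0.609, 95% interval of the difference -0.13 to 0.32, higher in 13 of 19 mice). With the mouse as a block, the pairing being the shared animal, no member's call changed.

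**Figure D2:**
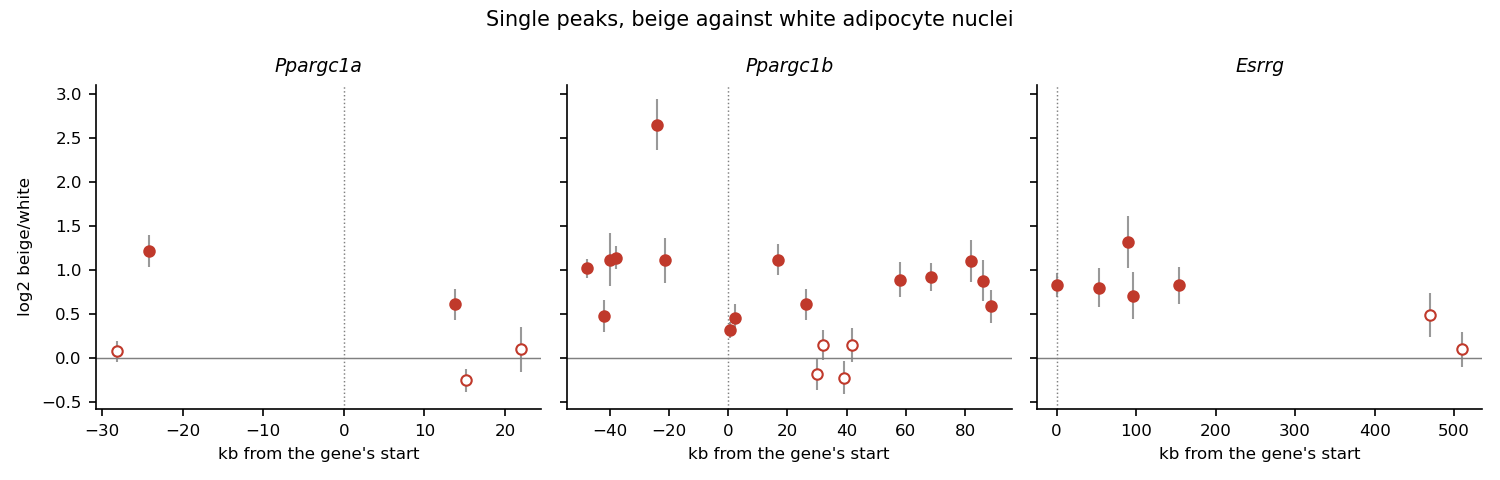
Single peaks of Ppargc1a, Ppargc1b and Esrrg that could be tested, by distance of the peak's centre from the annotated gene start (x axis, kb, negative upstream) and log2 fold change of beige against white adipocytes with its SE (y axis). Filled points passed an adjusted p of 0.05. The peak 23.9 kb upstream of Ppargc1b stands highest at 2.65, and Ppargc1a has tested peaks with and without a difference side by side.

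Peak by peak, the difference was spread over the tested peaks of Ppargc1b and Esrrg. On Ppargc1a only 3 of its 15 counted peaks could be tested, which cannot show how far its difference spread. Of 24854 peaks tested, 27.2% passed between beige and white adipocytes and 12.8% passed as higher in beige. A peak passed the filter on low counts in only 24 of the 104 counted cases (3 for Ppargc1a, 13 for Ppargc1b, 1 for Esrra, 0 for Esrrb and 7 for Esrrg), and 15 of them were higher in beige adipocytes: 9 of Ppargc1b, 5 of Esrrg and 1 of Ppargc1a. None was lower. The other 80 counted peaks had too few counts for the test. A peak could pass the filter through its beige sums alone, so the direction of these calls is not independent of the filter. The Esrrg peak at 89.6 kb, for instance, reached at most 9.99 CPM of all peak counts in white and 51.2 CPM in beige sums.

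On Ppargc1b, the peak at the gene start (chr18:61398506-61400935) ranged from 43.8 over 56.2 to 78.7 CPM of all peak counts in white adipocytes and from 47.1 over 76.6 to 162 in beige adipocytes, a difference of only 0.32 ± 0.09 on the log2 scale (adjusted p = 0.00339). The largest difference within the gene was in an intron 16.7 kb downstream of the start, at chr18:61383484-61384036 (1.12 ± 0.18, adjusted p = 4.29e-08). Outside the counted region, 6 of 9 peaks between 2 and 50 kb upstream passed the filter on low counts. All 6 were higher in beige adipocytes, and they too could enter the test through their beige sums. The strongest, at chr18:61424139-61424548 and 23.9 kb upstream, holds the full ERR element. It ranged from 0 over 2.3 to 5.0 CPM in white adipocytes and from 0 over 14.4 to 81.0 in beige adipocytes (2.65 ± 0.29, 6.26-fold, adjusted p = 2.48e-16). The median beige sum thus lay above every white sum at this peak. The peak farther up at chr18:61447361-61448956 had 66.6 ± 21.8 CPM in beige and 25.0 ± 7.45 in white adipocytes (1.02 ± 0.11). The weakest of the 6, at chr18:61441981-61442415 (0.48 ± 0.18, adjusted p = 0.0343), lost its call with the mouse as a block (0.40, adjusted p = 0.0799).

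On Ppargc1a, the inner start peak with the cyclic AMP element ranged from 2.95 over 12.2 to 22.6 CPM in white and from 0 over 22.6 to 40.1 CPM in beige adipocytes (0.61 ± 0.18, adjusted p = 0.00464; without 1 day3C mouse 0.47, adjusted p = 0.0798). The gene's most open adipocyte peak lies next to it, at chr5:51551775-51553262 in the intron, held 37.9% of the gene's adipocyte counts and did not pass (35.4 ± 8.83 CPM in white, 30.7 ± 16.1 in beige, -0.25 ± 0.13, adjusted p = 0.14). The peak 24.2 kb upstream, printed above, was at 9.61 ± 4.19 CPM in white and 27.3 ± 18 CPM in beige adipocytes (1.22 ± 0.18, adjusted p = 3.43e-09).

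On Esrrg, the start peak had a median of 18.6 CPM in white and 39.1 CPM in beige adipocytes (0.83 ± 0.14, adjusted p = 1.19e-07). In introns, 4 further peaks were higher in beige nuclei, at 53.7, 89.6, 96.3 and 154.2 kb from the start, by 0.71 to 1.32 on the log2 scale. The largest of them is the first Esrrg sequence above, at 3.84 ± 2.81 CPM in white and 13.9 ± 13.3 in beige adipocytes (1.32 ± 0.30, adjusted p = 0.000124). The second sequence, with the ERR core, belongs to a peak at 8.84 ± 3.83 and 19.7 ± 11.4 CPM (0.83 ± 0.21, adjusted p = 0.000583), which had no count in APC2 or in the cluster labelled VSMC. The peak at 96.3 kb lost its call with the mouse as a block (0.65, adjusted p = 0.0638). On Esrra, the peak with most of its counts had 34.0 ± 5.44 CPM in white and 37.0 ± 17.3 CPM in beige adipocytes (-0.02 ± 0.12, adjusted p = 0.941).

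Against day0RT, white and beige adipocyte nuclei of a mouse were summed, and all 7 groups were fitted together. Of 14429 genes tested, 0.34% passed in day1C, 1.68% in day3C, 5.08% in day7C, 2.61% in day1CL, 4.77% in day3CL and 7.81% in day7CL. Against this, 1 of the 5 genes rose in day7C, Esrrb, and 1 in day7CL, Ppargc1a, and none passed in the other 4 groups. At an unadjusted p under 0.05 there were 0 of the 5 in day1C, 2 in day3C (Ppargc1a and Esrrb, both higher), 1 in day1CL (Ppargc1b, lower) and 1 in day3CL (Esrrb, higher). At day 7 these were Ppargc1a and Esrrb in day7C and Ppargc1a, Esrrb and Esrrg in day7CL, all higher. The share of all genes under this unadjusted threshold is not given, so these counts cannot be set against all genes. The share of all genes whose groups did not overlap is not given either, so non-overlap below is description only. DESeq2 passed only Esrrb in day7C. These comparisons share the day0RT mice.

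**Figure D3:**
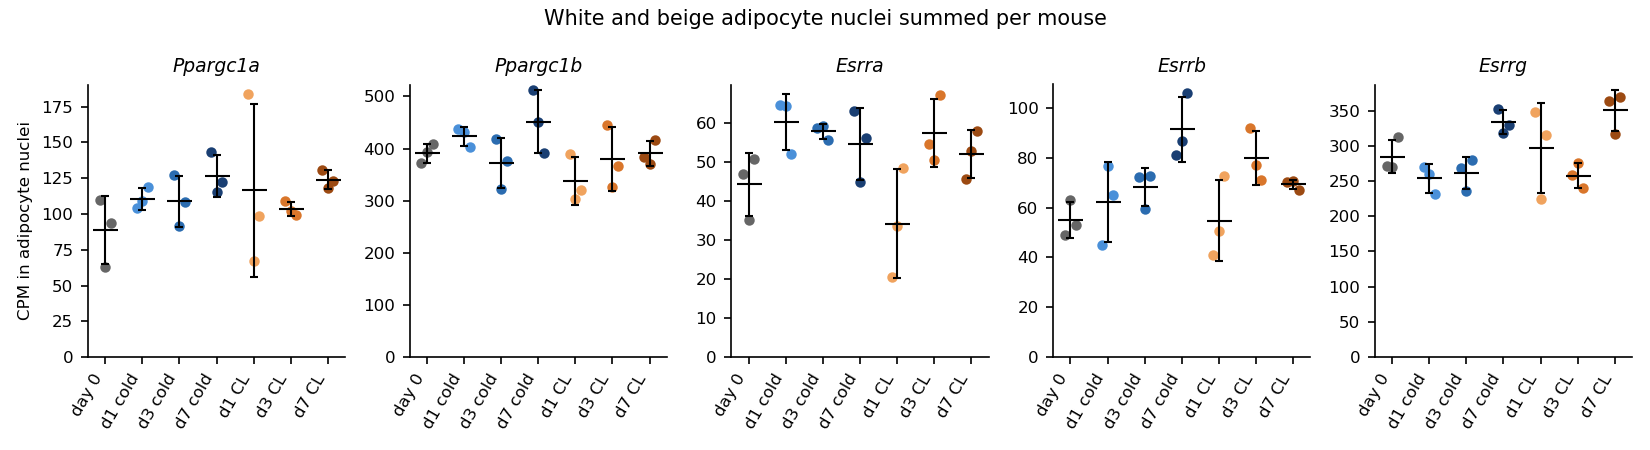
CPM of each gene (y axis, from 0) in white and beige adipocyte nuclei summed per mouse, by group (x axis). Points are mice (n = 3 per group) and lines give mean ± SD. Esrrb lies at 81.2 to 106 CPM in day7C and at 49.1 to 63.2 CPM in day0RT, while Ppargc1b and Esrra overlap with day0RT at day 7.

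Esrrb was at 49.1, 63.2 and 53.1 CPM in the day0RT mice and at 81.2, 86.9 and 106 CPM in the day7C mice. All day7C mice lay above all day0RT mice, and the difference was 0.79 ± 0.18 on the log2 scale (1.73-fold, edgeR, adjusted p = 0.0023). At day3CL it was at 91.8, 76.9 and 71.1 CPM, again without overlap (0.53 ± 0.17, adjusted p = 0.0578), and at day7CL at 70.1, 70.7 and 67.0 CPM (0.39 ± 0.18, adjusted p = 0.179).

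The share of beige nuclei was higher in both day 7 groups than in day0RT, but not in all day3CL mice. It was 7.69% to 12.2% of adipocyte nuclei in day0RT, 26.1% to 32.5% in day7C and 14.5% to 23.5% in day7CL. In day3CL mice 1, 2 and 3 it was 21%, 9.22% and 8.33%, with mice 2 and 3 inside the day0RT range. Esrrb was at 71.1 to 91.8 CPM in day3CL and at 49.1 to 63.2 CPM in day0RT, a difference that did not pass. The beige marker sum in adipocytes was 133 to 157 CPM in day0RT, 214 to 277 in day7C and 170 to 248 in day7CL. The smooth muscle sum in adipocytes was 190 to 211 CPM in day0RT, 213 to 234 in day7C and 242 to 258 in day7CL, without overlap, and the adipocyte marker sum had means of 1920, 1660 and 1750 CPM. The part of the beige share and of these markers in the changes at day3CL and day 7 was not tested. In white adipocyte nuclei alone, Esrrb at day7C was 70.5, 67.7 and 88.1 CPM against 43.0, 63.3 and 55.6 CPM (0.54, adjusted p = 0.154), and in beige nuclei alone 99.0, 133 and 145 against 85.4, 62.1 and 17.6 CPM (1.23, adjusted p = 0.208). Neither passed. Neither overlapped, but the day0RT values in beige nuclei came from only 6, 1 and 1 counts in 24, 12 and 22 nuclei.

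Ppargc1a was at 110, 63.2 and 93.6 CPM in the day0RT mice, at 131, 118 and 123 CPM in day7CL and at 143, 115 and 122 CPM in day7C. The lowest mouse of each treated group lay above the highest day0RT mouse, and the day0RT mice differed among themselves by more than the treated mice did. The difference was 0.45 ± 0.15 for day7CL (1.37-fold, edgeR, adjusted p = 0.0437) and 0.45 ± 0.15 for day7C (adjusted p = 0.067). In white nuclei alone the day7CL difference was 0.51 (126, 109 and 121 against 88.3, 55.8 and 95.2 CPM, adjusted p = 0.0343), and in beige nuclei alone it was -0.06 (adjusted p = 0.968). The call for day7CL was lost without day0RT mouse 2 (0.35, adjusted p = 0.197), day0RT mouse 3 (0.45, adjusted p = 0.169) or day7CL mouse 1 (0.38, adjusted p = 0.291), and with the replicate number as a block (0.43, adjusted p = 0.0633).

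The other 3 genes passed in none of the 6 comparisons. Esrrg was at 272, 270 and 312 CPM in day0RT, at 364, 317 and 370 CPM in day7CL and at 352, 318 and 330 CPM in day7C, with no overlap at day 7 (0.29 ± 0.11, adjusted p = 0.0863, and 0.20 ± 0.11, adjusted p = 0.318). Ppargc1b was at 372, 393 and 408 CPM in day0RT and at 384, 371 and 417 CPM in day7CL, which overlapped, and its 95% interval for that log2 difference was -0.22 to 0.21. Esrra was at 47.0, 35.1 and 50.8 CPM in day0RT, and its group means ran from 34.3 CPM in day1CL, where 2 mice had only 29 and 68 adipocyte nuclei, to 60.4 CPM in day1C. All day1C mice and all day3C mice lay above all day0RT mice (0.38 ± 0.21, edgeR, adjusted p = 0.568, and 0.31 ± 0.18, adjusted p = 0.456).

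Single peaks of the 5 genes rarely passed against day0RT. Of 47835 peaks tested, 0.213% passed in day1C, 1.28% in day3C, 3.13% in day7C, 2.06% in day1CL, 3.46% in day3CL and 4.19% in day7CL, and among the 43 counted peaks of the 5 genes that were tested 1 passed in day7C, 1 in day3CL, 1 in day7CL and 0 in the others.

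**Figure D4:**
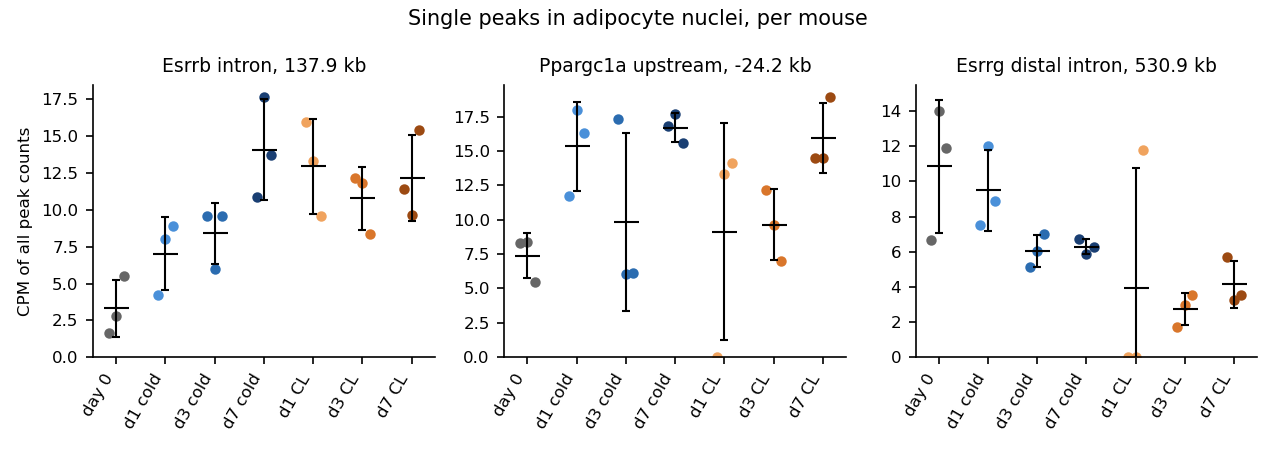
Values of 3 peaks in adipocyte nuclei by group (x axis), in CPM of all peak counts (y axis, from 0). Points are mice (n = 3 per group) and lines give mean ± SD, cut at 0, with distances from the annotated gene start in the titles. The Esrrb intron peak lies at 1.66 to 5.48 CPM in day0RT and at 9.68 to 17.7 CPM in both day 7 groups.

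The peak in day7C and day7CL was the same, the Esrrb intron peak at chr12:86498645-86499454, 137.9 kb from the gene start, whose central bases with a MEF2 element are printed above. It was at 1.66, 2.79 and 5.48 CPM of all peak counts in day0RT, from 1, 1 and 6 counts. At day7C it was at 10.9, 17.7 and 13.7 CPM and at day7CL at 11.4, 9.68 and 15.4 CPM, from 12 to 44 counts a mouse. All treated mice of these groups lay above all day0RT mice (day7C 1.80 ± 0.49, 3.49-fold, adjusted p = 0.0175; day7CL 1.61 ± 0.48, 3.04-fold, adjusted p = 0.0294). The means of the other groups were 7.03 CPM in day1C, 8.41 in day3C, 13.0 in day1CL and 10.8 in day3CL, and none of these passed. All mice of day3C, day1CL and day3CL also lay above all day0RT mice. The share of all peaks without overlap is not given, so this is description only. In day1CL the values came from 1, 3 and 17 counts. White and beige adipocytes had like levels at this peak, 9.96 ± 5.24 and 9.63 ± 7.12 CPM. With so few counts at day0RT, both calls depended on single mice: leaving out 1 mouse gave day7C values of 1.52 to 2.68, and the call was lost in 4 of 21 such fits and in 5 of 21 for day7CL, including each fit without a day0RT mouse.

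The peak that passed in day3CL was a distal Esrrg intron peak, at chr1:188139535-188139862 and 530.9 kb from the start, and it fell. It was at 6.65, 14.0 and 11.9 CPM in day0RT and at 1.74, 2.95 and 3.51 CPM in day3CL, without overlap (-1.75 ± 0.51, adjusted p = 0.0264). The groups day7CL and day3C had means of 4.16 and 6.05 CPM and did not pass. Its call was lost without day0RT mouse 2 or 3 or day3CL mouse 2. The Ppargc1a peak 24.2 kb upstream had means of 7.39 CPM in day0RT, 16.7 in day7C (1.27 ± 0.40, adjusted p = 0.0527) and 16.0 in day7CL (1.19 ± 0.39, adjusted p = 0.0502), and in both groups every mouse lay above every day0RT mouse.

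Between CL and cold on the same day, none of the 5 genes passed in summed adipocytes, where 0.922% of genes passed at day 1, 1.46% at day 3 and 0.111% at day 7. At an unadjusted p under 0.05, Ppargc1b at day 1, Ppargc1b at day 7 and Esrrb at day 7 were lower with CL, and DESeq2 passed none. Here too the share of all genes under the unadjusted threshold is not given. Ppargc1b was at 389, 303 and 321 CPM in day1CL and at 437, 431 and 403 CPM in day1C (-0.41 ± 0.13, adjusted p = 0.1), and Esrrb at 70.1, 70.7 and 67.0 CPM in day7CL and at 81.2, 86.9 and 106 CPM in day7C (-0.40 ± 0.13, adjusted p = 0.28). The groups did not overlap in either case. Those of Esrra at day 1 did not overlap either, with means of 34.3 CPM in day1CL and 60.4 CPM in day1C (-0.41 ± 0.21, edgeR, adjusted p = 0.409).

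**Figure D5:**
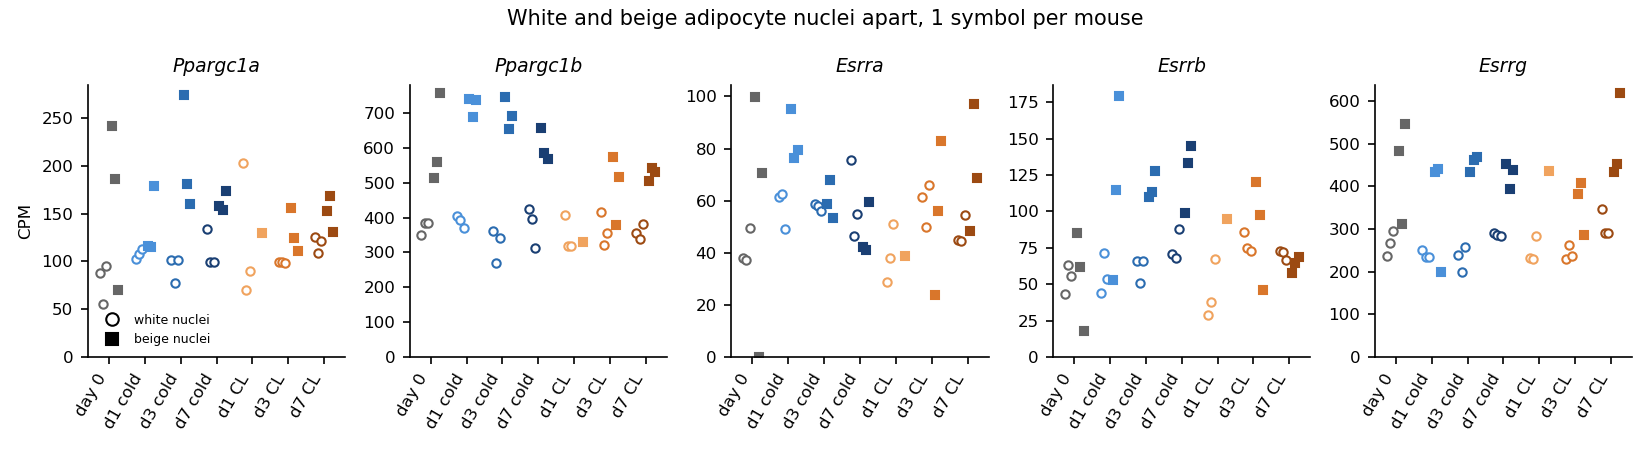
CPM of each gene (y axis, from 0) in white adipocyte nuclei (open circles) and beige adipocyte nuclei (filled squares), 1 symbol per mouse, by group (x axis). Only 1 day1CL mouse had 10 beige nuclei. Beige squares lie lower with CL than with cold at day 3 for Ppargc1a and Ppargc1b and at day 7 for Esrrb.

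In beige nuclei alone, a comparison added after the data were seen, 0.394% of 7353 genes passed between CL and cold at day 1, 1.29% at day 3 and 0.571% at day 7, and 3 of the 5 genes were lower with CL on at least 1 day. Ppargc1a in beige nuclei at day 3 was at 274, 181 and 160 CPM with cold and at 156, 124 and 111 CPM with CL, without overlap (-0.92 ± 0.22, edgeR, adjusted p = 0.00874). Ppargc1b at day 3 was at 745, 655 and 691 CPM with cold and at 574, 378 and 517 CPM with CL (-0.64 ± 0.15, adjusted p = 0.00511). At day 1 Ppargc1b was at 740, 689 and 736 CPM with cold and at 330 CPM in the only CL mouse with at least 10 beige nuclei (-1.08). With 1 mouse in that group there is no spread between CL mice, and its adjusted p of 0.00279 in edgeR assumes that this mouse varies like those of the other groups. Esrrb at day 7 was at 99.0, 133 and 145 CPM with cold and at 57.5, 64.7 and 68.7 CPM with CL (-1.02 ± 0.23, adjusted p = 0.0121). In the white nuclei of the same mice, Ppargc1a and Ppargc1b at day 3 and Esrrb at day 7 had log2 differences of 0.04, 0.10 and -0.11, none of which passed, and the difference between white and beige nuclei was not tested. DESeq2 did not call Ppargc1a (-0.82, adjusted p = 0.267) or Esrrb (-1.01, adjusted p = 0.933) in beige nuclei, and all 3 replicated calls depended on single mice. The Ppargc1a call was lost without day3C mouse 1 (-0.44, adjusted p = 0.795), day3CL mouse 2 (-0.88, adjusted p = 0.253) or day3CL mouse 3 (-0.85, adjusted p = 0.0643). The Ppargc1b call at day 3 was lost without day3C mouse 1 (-0.58, adjusted p = 0.246) or day3CL mouse 2 (-0.40, adjusted p = 0.49), and the Esrrb call without day7C mouse 3 (-0.85, adjusted p = 0.177) or day7CL mouse 1 (-0.89, adjusted p = 0.339).

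Within single cell types, all 7 groups were compared in an edgeR F test where each group had at least 2 mice. The share of genes that passed was 10.8% in white adipocytes, 2.08% in B cells, 0.125% in CD8 T cells, 0.0991% in APC2, 0.052% in CD4 T cells, 0.0172% in the other T cells and 0 in APC1 and macrophages. Of 17 tests of the 5 genes, those of Esrrg in white adipocytes (F = 4.03, adjusted p = 0.0196) and in B cells (F = 10.8, adjusted p = 2.11e-07) passed. In white adipocytes Esrrg was lowest in day3C, at 239, 200 and 258 CPM, and highest in day7CL, at 348, 291 and 290 CPM, while day0RT, at 236, 268 and 296 CPM, overlapped with both.

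In B cells, where Esrrg is at a low level, day1CL and day7CL stood apart from day0RT, and day1C was split. The gene was at 34.0, 30.6 and 30.5 CPM in day0RT, at 62.5, 59.4 and 45.7 CPM in day1CL, at 60.3, 56.4 and 51.7 CPM in day7CL and at 34.1, 59.7 and 65.0 CPM in day1C. The groups day3C, day7C and day3CL had means of 28.4, 27.4 and 26.9 CPM. All mice of day1CL and day7CL lay above all mice of day0RT, and so did 2 of the 3 day1C mice by a wide margin. The day1CL mouse at 45.7 CPM had only 66 B cell nuclei, and in its sum 2 counts make 45.7 CPM. Marker sums of other cell types in these B cell nuclei also differed between groups, in part with the gene and in part not. The progenitor sum was 335 CPM (308 to 354) in day1CL and 334 CPM (320 to 342) in day7CL, against 292 CPM (277 to 301) in day0RT and 261 CPM in day3CL. It was 303 CPM in day1C, 300 in day3C and 299 in day7C. The macrophage sum was 165 and 143 CPM in day1CL and day7CL and 124 CPM in day0RT. It was also 138 CPM in day3CL and 137 CPM in day7C, where the gene was low, and 123 CPM in day1C and 122 CPM in day3C. The dendritic sum was 460, 436 and 420 CPM in day1CL, day7CL and day0RT, and 409 CPM (day7C) to 421 CPM (day1C) in the others. The adipocyte marker sum had group means of 186 to 233 CPM, highest in day1C and lowest in day1CL and day7CL, and the B cell marker sum had group means of 1180 CPM in day1CL to 1370 CPM in day0RT. Their part in the result was not tested.

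Other genes of the pathway were taken from lists of known targets, partners and regulators. Between beige and white adipocytes, 23 of 31 tested targets of ERR and PGC-1 were higher in beige and 2 were lower. The median log2 difference was 0.48 against 0.01 over all genes, of which 13.6% passed as higher in beige. The list holds the beige markers Ucp1, Cidea, Cox8b and Dio2, and Pank1, which the paper named among its top beige genes. The clusters were defined from these same counts, so part of this count was fixed by the annotation. Among them Ucp1, the uncoupling protein of thermogenic fat, differed by 2.87 ± 0.21 and Cpt1b, which imports fatty acids into mitochondria, by 1.76 ± 0.14, whereas Pcx, encoding pyruvate carboxylase, was lower (-0.23 ± 0.06), as was Vegfa, an angiogenic factor (-0.19 ± 0.07). The related coactivator gene Perm1 was higher by 2.84 ± 0.22, and Pprc1 was not called. Of 18 partners and corepressors, 4 were higher and 2 lower (median 0.12), a share near the 28.8% of all genes that passed, with Gabpa (0.91 ± 0.14) and Prdm16, a determinant of brown fat identity (0.59 ± 0.06), above and the corepressor Nrip1 (-0.62 ± 0.07) and the coactivator Ncoa2 (-0.19 ± 0.07) below. Of 23 regulators of Ppargc1a, 7 were higher and 1 lower (median 0.10), also not far from that share, including the nuclear receptor gene Ppara (0.81 ± 0.08), Mef2d (0.58 ± 0.09) and, below, the CREB coactivator gene Crtc3 (-0.34 ± 0.08).

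Against day0RT, the targets that passed numbered 8 higher and 1 lower of 32 in day7C (median 0.29), 7 higher and 0 lower in day7CL (median 0.20), 3 and 1 in day3CL, 2 and 0 in day3C and 1 and 0 in each day 1 group. The median over all genes lay between -0.01 and 0. Of all genes, 5.08% passed in day7C, 7.81% in day7CL, 4.77% in day3CL, 1.68% in day3C, 0.34% in day1C and 2.61% in day1CL. The target list was chosen with earlier results of these data known. It holds beige markers, and the share of beige nuclei was higher at day 7. The part of that share in these counts was not tested. Ogdh, which encodes a subunit of the oxoglutarate dehydrogenase complex, rose in all 6 groups, by 1.2 in day3CL to 1.86 in day7CL. Ucp1 rose in day7C (1.70 ± 0.41) and Dio2, the thyroid hormone deiodinase, in day7CL (1.15 ± 0.24), whereas Vegfa fell in day7C (-0.42 ± 0.12) and day3CL (-0.36 ± 0.11). Perm1 rose by 2.44 in day3C, 2.81 in day7C, 2.01 in day3CL and 2.78 in day7CL. Among regulators, Prkaa2, a catalytic subunit of AMP-activated kinase, rose in day7C (0.62 ± 0.17), day3CL (0.59 ± 0.16) and day7CL (0.75 ± 0.16), Mef2c rose in day7CL (0.70 ± 0.16), and Irf4, a transcriptional partner of PGC-1α in thermogenic fat, and the β3-adrenergic receptor gene Adrb3 fell in day1CL (-1.54 ± 0.25 and -0.69 ± 0.17). Irf4 is also a gene of B cells, and the B cell marker sum in adipocyte nuclei was 137 CPM (119 to 164) in day0RT and 76.4 CPM (67.4 to 81.9) in day1CL, the T cell sum 56.9 and 32.8 CPM. Their part in the fall of Irf4 was not tested. Of the 18 tested partners, 1 rose in day1CL (Hif1a, 0.76 ± 0.22), 2 in day3CL (Ep300, 0.72 ± 0.23, and Lpin1, 0.35 ± 0.11) and 1 in day7CL (Ncoa2, 0.35 ± 0.11), and none passed in the cold groups. These counts of 0 to 2 of 18 partners and 0 to 2 of 23 regulators stand beside 2.61%, 4.77% and 7.81% of all genes in day1CL, day3CL and day7CL and are too small to set either list apart.

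Over the 12 cell types, genes with a similar profile of mean log2(CPM + 1) were Crb2 and Gpd1 for Ppargc1a (Pearson r of 0.98 and 0.95), Hdlbp, Ctnnbl1 and Ybx2 for Ppargc1b (0.96 each), Cisd1, Tmem101 and Cdadc1 for Esrra (0.95 each), Cry2, Odf3l1 and Grb14 for Esrrb (0.97 each) and AL607142.1, Cntfr and Slc22a3 for Esrrg (0.98, 0.97 and 0.96). They were among the closest of 16176 genes, and the 12 points share the same mice, libraries and depth differences.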

How the data were processed

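Nuclei of iWAT were barcoded by combinatorial indexing and sequenced in 4 lanes that each pool all groups. The authors aligned reads to mm10 with Bowtie2, removed nuclei of low quality and doublets, called peaks per cell type with MACS2 and named cell types with Signac. The matrix the authors deposited holds counts of 0 or 1 per nucleus and peak, and deposited metadata give each nucleus its mouse, group and cell type. Cold is 6.5 °C as in the labels. A mouse had 1340376 to 6916698 counts, and this number limits precision at single peaks.

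Counts were summed per mouse and cell type (at least 10 nuclei) over peaks on protein-coding genes (GRCm38) and 2 kb upstream, and tested 2-sided in edgeR 4.0.16 (quasi-likelihood, TMM, filterByExpr with minimum count 10, Benjamini-Hochberg, adjusted p under 0.05) in R 4.3.3, after tests on simulated data. Order tests used scipy 1.17.1 with 100000 resamples. Beige and white sums share the same mice, so the mouse was also fitted as a block. Alternatives were DESeq2 1.42.0, other size factors, filters, gene windows, nuclei and left-out mice. The p-values against day0RT and between CL and cold measure the spread between mice. The main beige against white fit takes the 2 sums of a mouse as separate, and the order tests measure the spread of differences within mice. Named genes of a list are the 2 highest and 2 lowest that passed. The members and lists were chosen with earlier results of these data known. The rule for alike profiles named 1 further gene, which is not reported here.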

Additional observations from a re-analysis of the deposited data

Results flagged for a closer look

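The difference between CL and cold on the same day passed in beige nuclei in 3 cases with replicates and in 1 case whose CL group is a single mouse (Ppargc1b at day 1), in a comparison chosen after seeing the data (edgeR, adjusted p under 0.05). The log2 differences were -1.08 for Ppargc1b at day 1, -0.92 for Ppargc1a at day 3, -0.64 for Ppargc1b at day 3 and -1.02 for Esrrb at day 7, each lower with CL. The first has no spread between CL mice behind it, and each of the other 3 lost its call without 1 of several mice. In white nuclei the same differences were -0.28, 0.04, 0.10 and -0.11, and none passed. Whether white and beige nuclei differ in this respect was not tested.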

How the results depend on the processing

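Over the settings that could be fitted, the 5 genes and their comparisons gave 553 values. Of these 541 kept their side of the threshold, 11 changed their call and 1 reversed. Beige nuclei alone were 1 of these settings and gave the 1 reversal, Ppargc1a in day7CL (-0.06), and several of the changed calls. With 1 mouse left out 1046 of 1050 kept their side. These 1050 hold no fits of beige nuclei alone, whose losses are given below. Counting peaks near the gene start only left some genes with too few counts to test. The cause of the changes was not tested.

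Ppargc1a in day7CL was 0.45 with DESeq2, 0.43 with the replicate number as a block, 0.45 with only the groups compared (none called) and -0.06 in beige nuclei only, and 0.35 to 0.57 with 1 mouse left out. Ppargc1a in day7C passed with 50 kb upstream (0.41) and with nuclei of at least 2000 counts (0.55). Esrrb in day7C was 0.54 in white and 1.23 in beige nuclei only (neither called), and Esrrb in day3CL was 0.46 to 0.59 with 1 mouse left out. Between CL and cold, beige nuclei only gave -1.08 (Ppargc1b, day 1), -0.92 (Ppargc1a, day 3), -0.64 (Ppargc1b, day 3) and -1.02 (Esrrb, day 7), where DESeq2 gave -0.82 for Ppargc1a and -1.01 for Esrrb without a call. With 1 mouse left out these ran from -1.10 to -1.01, -1 to -0.44, -0.73 to -0.40 and -1.19 to -0.85, and the calls were kept in 17 of 18, 16 of 19, 17 of 19 and 17 of 19 fits.

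Counted peaks called between beige and white adipocytes were 15, and 11 to 21 with 1 mouse left out. With no filter on low counts they were 37, while calls over all peaks went from 6752 to 44231. The direction of the 37 is not given. Several of the 15 lost their call in that setting, among them the Ppargc1a inner start peak (0.32, edgeR, adjusted p = 0.214). Without the filter the Ppargc1b start peak was at 0.0, and the median over all peaks moved to -0.50. The 1 peak called in each of day7C, day3CL and day7CL became 0 without the filter or at an adjusted p under 0.01, and 0 to 2, 0 to 2 and 0 to 1 with 1 mouse left out. Neighbouring cell types that differed numbered 8, 2 with at least 30 nuclei and 3 with promoter peaks only. With promoter peaks only, Esrrg in APC2 against white adipocytes was -1.7, at means of 62.1 and 64.4 CPM.

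By replicate number, same-numbered mice of different groups had a median correlation of 0.0017, from -0.12 to 0.12. Mice of other numbers and groups had 0.00031, from -0.062 to 0.11. This correlation cannot show whether a shared batch moved some genes only. The paper states that its 3 snATAC-seq batches were made independently, and whether the replicate numbers follow them was not tested. The block changed no call of the 5 genes but that of Ppargc1a in day7CL, and moved all genes called in day1C from 49 to 25 and between CL and cold at day 7 from 16 to 32. Over all genes, calls fell to 1099 of 3673 (beige against white), 0 of 49, 29 of 242, 97 of 733, 79 of 377, 110 of 688 and 130 of 1127 (day1C, day3C, day7C, day1CL, day3CL and day7CL) with promoter peaks only, and to 9 of 133, 17 of 210 and 0 of 16 (CL against cold at days 1, 3 and 7) with DESeq2.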
